A study of Ovis aries with 30 samples.

Results

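Perirenal brown fat (brown adipose tissue, BAT) and thyroid were compared by RNA-seq in the 3 control lambs of the series, which were sampled before any temperature treatment. The members are 6 of the 30 RNA-seq libraries, 3 of BAT and 3 of thyroid, taken by the tissue and the control group in their labels, and the number in the labels pairs the BAT and the thyroid library of a lamb. All 15 lambs of the series were newborn Romney lambs born outdoors as twins, with 1 lamb used per dam, and no allele, transgene or drug is named for any of them. The controls were sampled at an age of 12 to 24 h, whereas 6 lambs were first kept for 2 days at 20 to 22 °C (ambient temperature) and 6 for 2 days at 4 °C (cold), so that the 12 treated lambs were also older. The control lambs are here called lamb 1, 2 and 3. Each library holds a whole piece of tissue with all its cell types, and in such bulk samples fewer cells of a type and less RNA per cell cannot be told apart.

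BAT burns fatty acids to make heat: noradrenaline acts on beta-adrenergic receptors, lipids are released from droplets, and UCP1 lets protons leak across the inner mitochondrial membrane so that respiration gives heat in place of ATP. Lambs are born with large BAT depots, which turn into white fat after birth. The thyroid follicle cell is an epithelial cell that takes up iodide, couples it to thyroglobulin in the lumen, and later takes the protein back and digests it to free thyroid hormone, which BAT in turn activates by a deiodinase.

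The libraries held between 25062784 and 34523931 counts. In BAT, the pair LOC114112617 and LOC114115287, which have only a LOC name, made up 69.9%, 74.7% and 49.8% of the counts of lambs 1, 2 and 3, and 8.04%, 27.8% and 5.18% in thyroid, so that between 8749813 and 16220016 counts remained for the other genes in BAT and between 18098434 and 26929601 in thyroid. Lamb 2 had the fewest of these remaining counts and stood apart in both tissues. Spearman's correlation over tested genes was 0.978 between lambs 1 and 3 in BAT and 0.954 in thyroid, whereas lamb 2 reached at most 0.875 and 0.901 with them. RNA integrity in the study was on average higher for thyroid than for BAT. The study left 1 control out of its own comparisons for outlier counts, and the labels do not name it. Results are therefore given with all 3 lambs and, where they change, without lamb 2. Normalized counts are deposited counts divided by a TMM size factor per library, which was 0.337 for BAT of lamb 2 and between 0.681 and 1.84 for the other libraries, and values in parentheses or lists always follow the order of lambs 1, 2 and 3.

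The defining genes of each tissue were at high levels in it and low or absent in the other. UCP1, the proton leak protein (chromosome 17, 18691987 to 18698653), had 24668, 120540.0 and 22167 normalized counts in BAT and 86.0, 342 and 142 in thyroid. The fold difference was large in every lamb, and no thyroid library came near a BAT library (log2FC, BAT over thyroid, 7.97 ± 0.62, adjusted p = 0.0038). TG, thyroglobulin (chromosome 9, 22956462 to 23207959), had 1323596, 893049 and 2237190.2 normalized counts in thyroid and 14.7, 190.0 and 10.9 in BAT (log2FC -15.58 ± 1.69, adjusted p = 0.0055). TG alone took 8.52%, 3.94% and 14.2% of the thyroid counts. The labels of all 6 libraries thus matched the markers of their tissues. BAT of lamb 2 held the highest UCP1 and TG values of the 3 BAT libraries. Per kilobase of exon length, the mean normalized count of UCP1 in BAT was 35089, above that of 119.6 in thyroid and below those of FABP4 (172512) and ADIPOQ (53012), and in thyroid TG (177013) stood above CALCA, the calcitonin gene of C cells (13116). ADIPOQ had 19470, 281807 and 32062 normalized counts in BAT, so its rank above UCP1 depends on lamb 2. CALCA had 15164, 15652 and 229 in thyroid, so its mean comes from lambs 1 and 2.

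**Figure D1:**
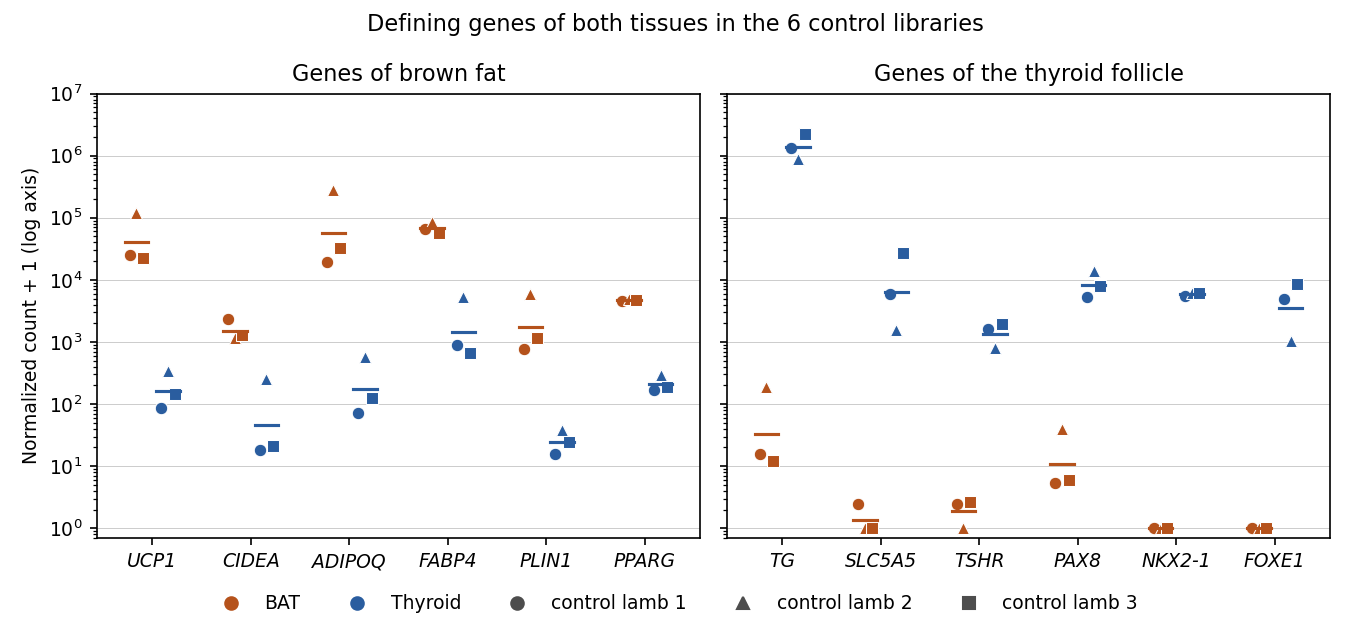
Normalized counts plus 1 (log axis) of 6 genes of brown fat (left) and 6 genes of the thyroid follicle (right) in the 3 BAT libraries (orange) and the 3 thyroid libraries (blue), with a symbol per lamb and a line at the mean on the log scale. The tissues do not overlap for any of the 12 genes, and NKX2-1 and FOXE1 are at 0 counts in all 3 BAT libraries.

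Across the transcriptome, 1757 of 16006 tested genes (11%) were differentially expressed between the tissues by edgeR's paired quasi-likelihood test, at an absolute log2FC of at least 1 and an adjusted p under 0.05. Of these DEGs, 748 (4.67% of tested genes) were higher in BAT and 1009 (6.3%) in thyroid. All these differences beyond the adjusted threshold also passed the fold threshold. An unadjusted p under 0.05 was reached by 4305 genes (26.9%), and in 5846 genes (36.5%) the libraries of the 2 tissues did not overlap. The count depends on lamb 2. Without it, 5473 of 16550 genes (33.1%) were called, 2858 (17.3%) higher in BAT and 2615 (15.8%) in thyroid, and 1734 of the 1757 DEGs were among them. Without lamb 1 or lamb 3, in contrast, 1209 and 1252 genes were called. The share of DEGs that were higher in BAT was 42.6% with all lambs, 52.2% without lamb 2, 35.4% without lamb 1 and 33.0% without lamb 3, so that which tissue had more DEGs depends on the lambs used.

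**Figure D2:**
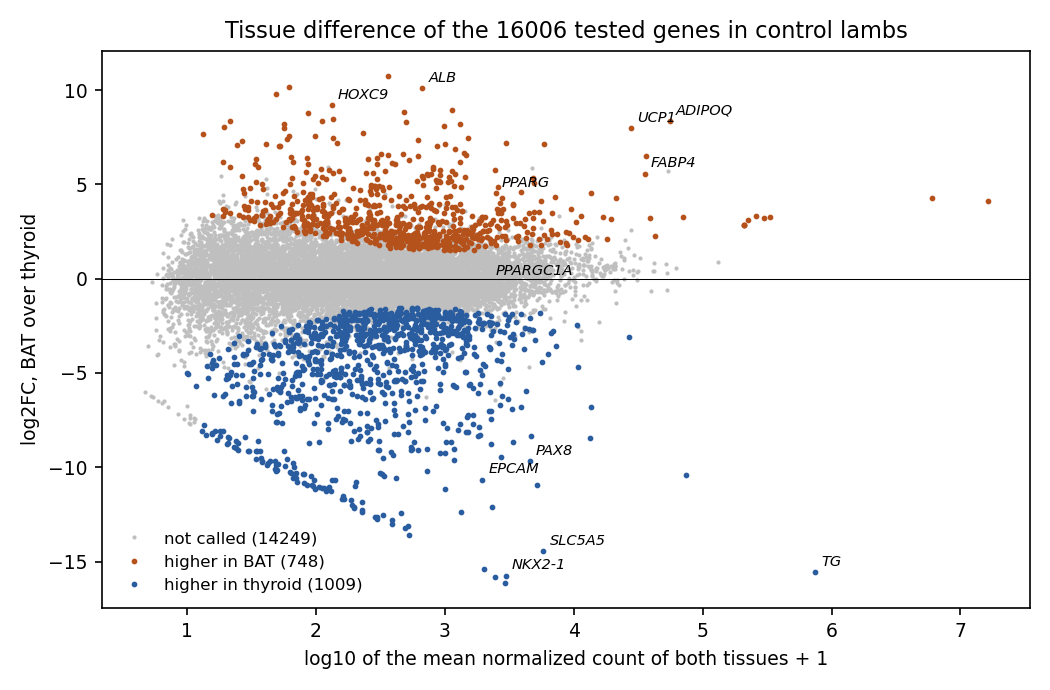
Difference between BAT and thyroid (log2FC) of the 16006 tested genes against the log10 of the mean normalized count of both tissues plus 1, with the 748 genes higher in BAT in orange, the 1009 higher in thyroid in blue and all other genes in grey. TG and ADIPOQ lie far out at high counts, with log2FC of -15.58 ± 1.69 and 8.35 ± 0.62.

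Of the brown adipocyte list, 10 of 24 tested genes were higher in BAT and none in thyroid, against 4.67% of all tested genes, with a median log2FC of 2.02 against -0.04 for all tested genes. ADRB3, the beta-adrenergic receptor of brown fat, had 1103, 1238 and 446 normalized counts in BAT and 5.45, 10.9 and 9.97 in thyroid (log2FC 6.62 ± 0.67, adjusted p = 0.00539). PPARGC1B, a coactivator of mitochondrial genes, had 1204, 2521 and 850.1 and 26.7, 34.4 and 28.2 (log2FC 5.53 ± 0.50). Both were far above the thyroid in every lamb. CIDEA, a lipid droplet protein of brown adipocytes, had 2341, 1167 and 1295 in BAT and 16.9, 254 and 20.5 in thyroid (log2FC 5.23 ± 1.14, adjusted p = 0.0356), where lamb 2 was the highest of the thyroid libraries. PRDM16, a regulator of brown fat identity, was low but higher in BAT, with 104, 101 and 141 against 9.26, 6.34 and 11.6 (log2FC 3.67 ± 0.66, adjusted p = 0.02), a call that was lost without lamb 1 (adjusted p = 0.0783) or lamb 3 (adjusted p = 0.0961). EBF2, which acts with it, had 3640.2, 1461 and 1555 against 216, 80.6 and 173 (log2FC 3.81 ± 0.44). PLIN5, which ties lipid droplets to mitochondria (log2FC 3.06 ± 0.60), GK, glycerol kinase (log2FC 3.94 ± 0.44), and EBF3, a relative of EBF2 (log2FC 2.24 ± 0.45), were called as well. PPARGC1A, the best known coactivator of thermogenesis, was not called. It had 1569.7, 3094 and 643 normalized counts in BAT and 662, 6393 and 945 in thyroid, with the highest value in the thyroid of lamb 2 (log2FC -0.14 ± 0.57, adjusted p = 0.902). FABP3, a fatty acid carrier, had 859, 603 and 279.7 in BAT and 4677, 1705 and 13057 in thyroid, with all thyroid values above all BAT values but no call (log2FC -3.05 ± 0.90, adjusted p = 0.0836). Without lamb 2, 15 of 26 list genes were higher in BAT and 1, CPT1B, in thyroid (log2FC -1.38 ± 0.28, adjusted p = 0.00355). The shares over all tested genes were then 17.3% and 15.8%.

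Of the general adipocyte list, 17 of 29 tested genes were higher in BAT, against 4.67% of all tested genes. All 29 had a log2FC above 0, with a median of 3.95. ADIPOQ, the adipokine adiponectin, had 19469.5, 281807 and 32062 normalized counts in BAT and 71.9, 560.5 and 124 in thyroid (log2FC 8.35 ± 0.62, adjusted p = 0.0038). PPARG, the master regulator of adipocyte formation, was even across lambs, with 4643, 4869 and 4726 in BAT and 167, 289 and 185 in thyroid (log2FC 4.52 ± 0.45). DGAT2, which makes triglycerides, had 5551, 9628 and 2731 and 28.9, 48.0 and 32.1 (log2FC 7.21 ± 0.56). These 3 genes did not overlap between the tissues. LEP, leptin, was at 73.4, 243 and 36.1 normalized counts in BAT and 0, 0 and 1.11 in thyroid, where it had 2 counts over the 3 libraries, a ratio of 188 (95% counting interval 51.3 to 1565). CEBPA, a transcription factor of fat cells (log2FC 5.69 ± 0.61), AQP7, the glycerol channel (log2FC 6.86 ± 0.68), TRARG1, which helps insulin move the glucose transporter (log2FC 7.15 ± 0.86), and ADRB1, a second beta-adrenergic receptor (log2FC 4.50 ± 0.80), were also higher in BAT. FABP4, PLIN1, CIDEC, LPL and LIPE, which carry, coat, store and release lipid, were called as well, with log2FC between 3.95 (LIPE) and 6.20 (PLIN1). The thyroid of lamb 2 held more transcript of several of these genes than the other thyroids, with 902, 5299.6 and 652 normalized counts of FABP4 and 14.2, 144 and 22.1 of CIDEC. FASN and SCD, which make fatty acids, had a log2FC of 0.30 ± 0.49 and 3.16 ± 1.42 and were not called. PNPLA2, the first lipase of lipolysis, was not called, and its highest value was in the thyroid of lamb 2 (8684, 9803 and 5048 in BAT, 2663, 25634 and 2211 in thyroid). Without lamb 2, 23 of 30 list genes were higher in BAT, PNPLA2 among them (log2FC 1.45 ± 0.30, adjusted p = 0.00401). The share over all tested genes was then 17.3%.

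Few genes of fatty acid oxidation and respiration were called with all lambs. Across all tested genes, edgeR then called 4.67% higher in BAT and 6.3% in thyroid. Of the fatty acid oxidation list, 1 of 21 tested genes was called by edgeR (DESeq2's Wald test called 8), ACSL1, which activates fatty acids (6595, 9916 and 4771 against 2199.7, 2569 and 1338 normalized counts, log2FC 1.79 ± 0.42, adjusted p = 0.0439), and this call was lost without lamb 1 (adjusted p = 0.243) or lamb 3 (adjusted p = 0.289). Without lamb 2, 6 genes of the list were higher in BAT, among them HADHA, of the last steps of the cycle (log2FC 1.15 ± 0.29, adjusted p = 0.011), and 1 in thyroid, CPT1B. None of the 22 genes of the tricarboxylic acid cycle was called by edgeR (7 had an unadjusted p under 0.05, and DESeq2 called 7), and none of the 57 nuclear genes of the respiratory chain (16 had an unadjusted p under 0.05, and DESeq2 called 13). Of all tested genes, 26.9% had an unadjusted p under 0.05 by edgeR, and DESeq2 called 3660 of 16006. Counted in either direction, the 57 genes were near these shares. All 57 had a log2FC above 0, with a median of 1.06. All 13 DESeq2 calls among them were higher in BAT, where DESeq2 called 1852 of all 16006 genes. An edgeR fit of all 30 libraries called 21 of the 57 higher in BAT of controls, against 15.7% of all tested genes. This lean towards BAT was smaller without lamb 2. The median of the 57 genes was then 0.40, with 43 above 0 and 9 called higher in BAT, and the median of the tricarboxylic acid cycle was 0.41 in place of 1.31, with 5 genes called higher in BAT and 1 in thyroid. Without lamb 2, 17.3% of all tested genes were called higher in BAT and 15.8% in thyroid. The 9 of 57 were near that share. CS, citrate synthase, had 4258, 20135 and 4076 normalized counts in BAT and 1741, 1168 and 1903 in thyroid (log2FC 2.09 ± 0.74, adjusted p = 0.13 with all lambs and 1.20 ± 0.28, adjusted p = 0.00744 without lamb 2). CPT1B, the mitochondrial fatty acid gate of muscle and brown fat, was not called, with 319, 448 and 234 in BAT and 688, 316 and 739 in thyroid. Of the creatine and calcium cycling list, a set of genes for heat without UCP1, 2 of 11 were higher in BAT, ALPL (log2FC 4.30 ± 0.56) and the calcium channel RYR2 (log2FC 3.88 ± 0.61), and the creatine transporter SLC6A8 was higher in thyroid (log2FC -2.79 ± 0.45). The call of RYR2 was lost without lamb 3 (adjusted p = 0.0611), and without lamb 2 the counts of this list were 2 and 3.

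All 5 transcription factors of the thyroid list were higher in thyroid, against 6.3% of all tested genes. NKX2-1 (chromosome 18, 45586353 to 45590209) had 5430.3, 6164 and 6176 normalized counts in thyroid and 0 counts in BAT, at least 665-fold higher when BAT is set to 3 counts at its smallest size factor. FOXE1 (chromosome 2, 52485324 to 52487862) had 4858, 1051 and 8669.8 in thyroid and likewise 0 counts in BAT, at least 546-fold higher. PAX8, the third factor that defines the follicle cell, had 5348, 13924 and 7921 and 4.41, 38.6 and 5.04 (log2FC -9.69 ± 0.79, adjusted p = 0.00382). The 3 genes left no overlap between the tissues in any lamb. HHEX and GLIS3, which are needed for the gland but also active elsewhere, differed less, with log2FC of -2.96 ± 0.45 and -3.83 ± 0.41, and HHEX still had 355, 116 and 444 normalized counts in BAT.

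Thyroid hormone synthesis followed the same direction, with 10 of 15 tested genes higher in thyroid and 1 in BAT, against 6.3% and 4.67% of all tested genes. The median log2FC was -7.69 (-6.80 with genes at 0 counts set to their bound). SLC5A5, the sodium iodide symporter, had 5893, 1528 and 27359.9 normalized counts in thyroid and 1 count over the 3 BAT libraries. Lamb 3 held the most and lamb 2 the least, and no BAT library came near them. TSHR, the receptor for thyrotropin, had 1592, 793 and 1945 in thyroid and 1.47, 0 and 1.68 in BAT, a ratio of 1134 (95% counting interval 388 to 5500). IYD, which recycles iodide, had 3609, 2439 and 5919 in thyroid and 0 counts in BAT, at least 448-fold higher. The hydrogen peroxide source DUOX2 had 2277, 1052 and 4550.3 in thyroid and 23.5, 0 and 17.6 in BAT (log2FC -7.69 ± 0.80), and its partner DUOX1 and the maturation factors DUOXA1 and DUOXA2 were called too. SLC26A7, an iodide transporter of the follicle, was called with a log2FC of -6.80 ± 1.28, whereas SLC26A4, pendrin, had 0 counts in all 6 libraries. GPX3, a secreted peroxidase that removes hydrogen peroxide, was the exception: it had 9496, 88764 and 4905 normalized counts in BAT and 1229.7, 10928 and 411 in thyroid (log2FC 3.18 ± 0.47, adjusted p = 0.0113), with lamb 2 the highest in both tissues, and the unpaired fit, without the replicate block, did not call it (adjusted p = 0.193).

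Hormone release and action showed a mixed picture. Of the release list, 2 of 13 genes were higher in thyroid and 1 in BAT, against 6.3% and 4.67% of all tested genes. LRP2, the receptor megalin that takes up thyroglobulin, had 2101, 1077 and 1169 in thyroid and 1.47, 0 and 5.04 in BAT (log2FC -9.01 ± 0.79). The lysosomal protease CTSZ went the other way, with 2342, 4254 and 1711 in BAT and 491, 477 and 414 in thyroid (log2FC 2.48 ± 0.43). CTSB, a protease that digests thyroglobulin, was not called with all lambs. The thyroid value exceeded the BAT value in lambs 1 and 3, and the reverse held in lamb 2 (15478, 8317 and 26554 in thyroid, 1440.5, 11124 and 1541 in BAT, adjusted p = 0.187), and without lamb 2 its log2FC was -3.77 ± 0.35 (adjusted p = 3.38e-05). Without lamb 2, 2 genes of this list were higher in BAT and 4 in thyroid, against 17.3% and 15.8% of all tested genes. Of the action list, 3 of 16 genes were called, all higher in BAT, against 4.67% of all tested genes. Without lamb 2, 6 of 17 were higher in BAT and 2 in thyroid, against 17.3% and 15.8% of all tested genes. DIO2, the deiodinase that activates the hormone inside brown adipocytes, had 858, 1832 and 575 in BAT and 48.5, 131 and 55.9 in thyroid (log2FC 3.77 ± 0.44, adjusted p = 0.00601). DIO1, the deiodinase best known from liver, kidney and thyroid, was also higher in BAT, with 742, 5759.6 and 276 against 39.8, 6.34 and 12.2 (log2FC 5.72 ± 1.24, adjusted p = 0.0351). BAT of lamb 2 was the highest, and without that lamb the log2FC was 4.35 ± 0.39. RXRG, a partner receptor of the thyroid hormone receptors, had 1094, 3085 and 979 and 7.62, 20.8 and 9.41 (log2FC 7.01 ± 0.49). The receptors themselves were not called with all lambs. THRA had 862, 1104 and 961 in BAT and 789, 1484 and 679 in thyroid, and THRB 42.6, 125 and 42.8 and 10.3, 6.34 and 3.32 (log2FC 3.29 ± 0.83, adjusted p = 0.0528, and 2.77 ± 0.67, adjusted p = 0.00881, without lamb 2).

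Epithelial genes were higher in thyroid almost throughout, whereas 6.3% of all tested genes were called higher in thyroid with all lambs. Of 28 tested genes, 27 were higher in thyroid, all 28 had a log2FC below 0, and the median was -6.98 (-6.62 with genes at 0 counts set to their bound). EPCAM, an adhesion molecule of epithelia, had 4412, 1958 and 5278 normalized counts in thyroid and 4.41, 0 and 2.52 in BAT (log2FC -10.65 ± 0.76). CDH1, E-cadherin, had 1647, 2077 and 1985 and 1.47, 35.6 and 6.72 (log2FC -7.66 ± 0.88), and the keratin KRT8 7448, 4774 and 6000.1 and 38.2, 74.2 and 120.1 (log2FC -6.39 ± 0.67). The summed normalized count of the list was even across lambs, from 54667 to 62858 in thyroid and from 1191 to 1912 in BAT. RAB25 and PKP3, for vesicle traffic and cell junctions, had 0 counts in BAT and were at least 111-fold and 74.1-fold higher in thyroid. MAL2 was the gene of the list that was not called (584, 365 and 1064 in thyroid, 191, 995 and 249 in BAT), with BAT of lamb 2 above the thyroid of lamb 2. Of the 46 endoplasmic reticulum chaperone and export genes, which fold and ship secreted proteins, 2 were called, DERL3 (log2FC -5.55 ± 0.66) and ERO1B (log2FC -3.44 ± 0.51), both higher in thyroid. HSPA5, the main chaperone, had 5586, 113447 and 5132 normalized counts in BAT and 5769, 4181 and 26739 in thyroid, so that BAT of lamb 2 was far above all others. Without lamb 2, 12 of the 46 genes were higher in thyroid, against 15.8% of all tested genes, and the median log2FC went from -0.24 to -0.78.

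HOX genes, which record the position of a tissue along the body axis, set perirenal BAT apart from thyroid, a tissue of the neck. Of 24 tested HOX genes, 12 were higher in BAT and none in thyroid, against 4.67% and 6.3% of all tested genes. Their median log2FC was 3.31. Of the tested genes with the numbers 6 to 10 in their names, 10 of 14 were called, and of those with the numbers 1 to 5, 2 of 10 (HOXA4 and HOXD3). But without lamb 2 these counts were 12 of 14 and 9 of 12 higher in BAT, against 17.3% of all tested genes. The difference between the groups of numbers was not tested. None of the 9 listed genes with the numbers 11 to 13 had counts enough to be tested with all lambs. HOXC9 (chromosome 3, 142051006 to 142054267) had 342, 128 and 317 normalized counts in BAT and 1.09, 0 and 0 in thyroid, a ratio of 702 (95% counting interval 194 to 5807). HOXA10 had 166, 109.8 and 87.4 in BAT and 0 counts in thyroid, at least 44.6-fold higher, and HOXC10 110.1, 101 and 78.1 and 0 counts, at least 35.5-fold higher. HOXA9 had 662, 184 and 541 against 1.63, 2.72 and 1.66 (log2FC 7.70 ± 0.79). The lower numbers overlapped more. HOXB2 had 207, 59.4 and 206 normalized counts in BAT and 229, 146 and 317 in thyroid, and HOXA2 42.6, 17.8 and 49.6 and 16.3, 66.1 and 15.5, neither called. By cluster, 5 of 8 tested HOXA genes, 4 of 6 HOXC genes and all 3 HOXD genes were called, but none of 7 HOXB genes. HOXB6, with 1013, 65.3 and 1391 in BAT and 94.2, 144 and 8.31 in thyroid, was high in BAT of lambs 1 and 3 alone. Without lamb 2, 22 of 27 tested HOX genes were higher in BAT, 3 of 8 of the HOXB cluster among them, against 17.3% of all tested genes. HOXB1 was called higher in thyroid in that fit, with 10.3, 1.81 and 17.2 normalized counts there and 0 counts in BAT. It passed the filter only through its thyroid libraries and was not tested with all lambs, so no fold is given.

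**Figure D3:**
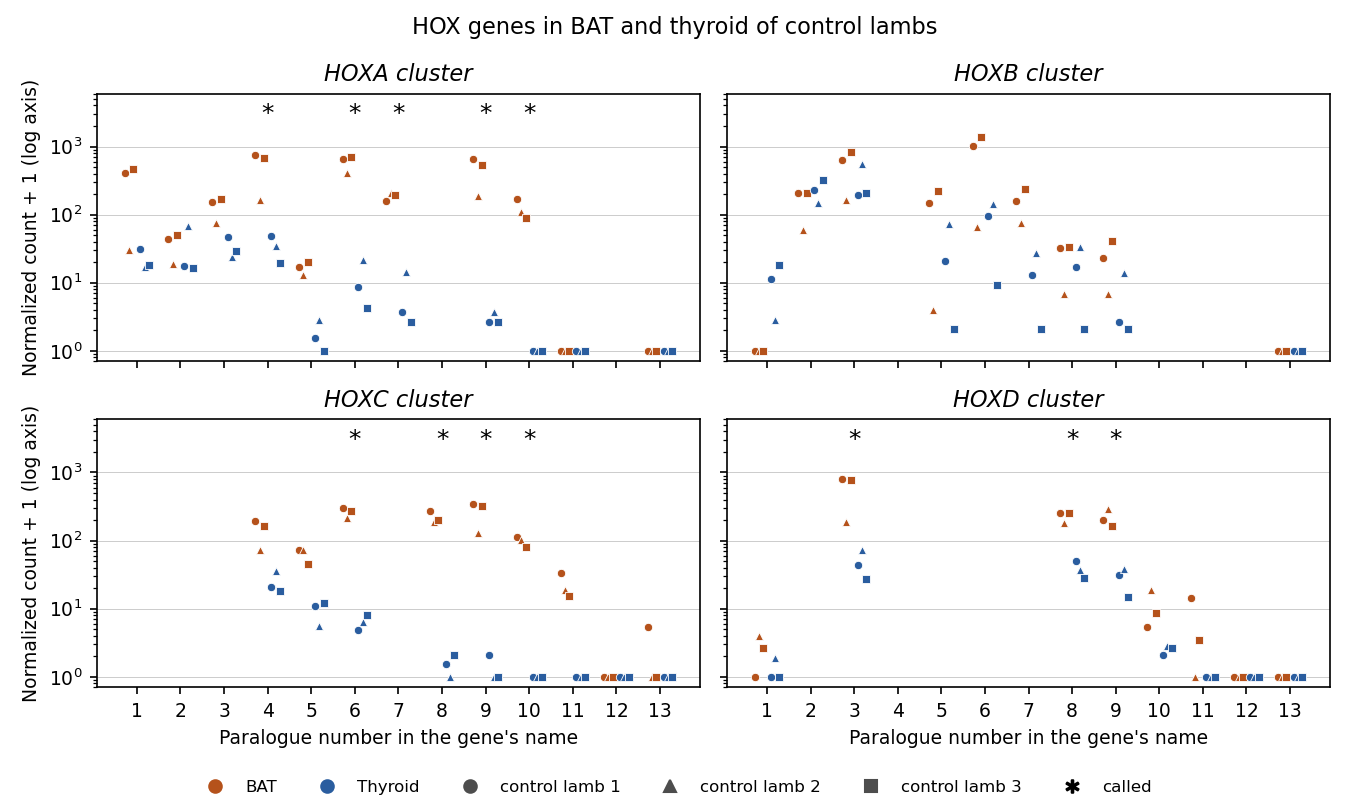
Normalized counts plus 1 (log axis) of the HOX genes of each cluster against the paralogue number in the gene's name, in the 3 BAT libraries (orange) and the 3 thyroid libraries (blue), with a symbol per lamb and a star over genes called. At HOXA10 and HOXC10 the BAT libraries lie at 78.1 normalized counts or more and the thyroid libraries at 0, and the value of HOXB6 in BAT of lamb 2 lies far below those of lambs 1 and 3.

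Genes that were restricted to a tissue were counted as those with at least 100 normalized counts in each of its 3 libraries and at most 3 counts in each library of the other. There were 67 such genes in thyroid, 57 of them with a symbol, and 7 in BAT, 5 with a symbol. The ceiling is in deposited counts, and size factors were 0.337 to 1.19 in BAT and 1.10 to 1.84 in thyroid. It thus let through higher normalized counts in BAT, such as 8.91 of AP1M2 in BAT of lamb 2. The numbers 67 and 7 are therefore not directly comparable. Of the 67, 33 had 0 counts in BAT. Without lamb 2 the counts were 118 and 19, and with at most 10 counts allowed in the other tissue 140 and 10. The BAT genes were HOXA9, HOXC8, HOXC9, ALB and CPN2. ALB, serum albumin, had 900.1, 433 and 2671 normalized counts in BAT and 0, 1.81 and 1.66 in thyroid (log2FC 10.09 ± 0.92), and CPN2, a carboxypeptidase subunit of plasma, 473, 2028 and 365 and 1.09, 2.72 and 1.11 (log2FC 8.84 ± 0.65). Both are best known from liver. Among the genes of thyroid, SLC5A5, NKX2-1, FOXE1, IYD, TSHR and DUOXA1 belong to the lists above, and LRRC6, a gene of ciliated cells, had 4287, 1710.4 and 11510.0 normalized counts there and 0 counts in BAT, at least 655-fold higher. GJB1, a gap junction protein, was at least 119-fold higher, and ATP13A4, a transporter, at least 86.7-fold, again with 0 counts in BAT. Among the 10 named genes with the largest differences in favour of BAT were also LHCGR, the receptor for luteinizing hormone, with 51.4, 413 and 52.9 against 0, 0.91 and 0, SLC27A2, which activates very long fatty acids (217, 2595 and 187 against 2.18, 4.53 and 0), RHBG, an ammonium transporter (2813, 1885 and 3124 against 4.36, 9.05 and 14.9), and CYLC1, a gene of the sperm head (1186, 3052 and 1668 against 1.63, 9.05 and 13.8). LHCGR and SLC27A2 were far higher in BAT of lamb 2, whereas RHBG and CYLC1 were high in BAT of all 3 lambs.

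Markers of other cell types differed between the pieces of tissue, and their part in the results above was not tested. Of the stromal markers, 10 of 19 fibroblast and matrix genes and 5 of 11 of smooth muscle and pericytes were higher in BAT. So were 4 of 18 of endothelium and 1 of 12 of macrophages (MRC1), and 1 endothelial gene, PLVAP, was higher in thyroid. Across all tested genes, 4.67% were higher in BAT and 6.3% in thyroid. The summed normalized counts of the fibroblast list were 59555, 115407 and 57512 in BAT and 17518, 22318 and 14261 in thyroid. ACTA2, smooth muscle actin, had 7586, 9726 and 14137 normalized counts in BAT and 621, 359 and 877 in thyroid (log2FC 4.12 ± 0.51), VWF, of endothelium, 27011, 9263 and 20074 and 2064, 2399 and 1993 (log2FC 3.01 ± 0.56), and COL1A1, a collagen, 7482, 13672 and 7938 and 1628, 3266 and 1292 (log2FC 2.29 ± 0.44). The calls of VWF and COL1A1 were lost without lamb 1 (adjusted p = 0.0787 and 0.12) or lamb 3 (0.0661 and 0.169), and so were those of MRC1 (0.113 and 0.128) and PLVAP (0.173 and 0.374). Without lamb 1, 8, 5, 1 and 0 genes of these 4 lists were higher in BAT, and without lamb 3, 6, 4, 2 and 0. Over all tested genes, 428 of 16093 and 413 of 16120 were then higher in BAT. Without lamb 2, in contrast, 17 of 19, 10 of 11, 15 of 18 and 8 of 11 genes of these 4 lists were higher in BAT. The share over all tested genes was then 17.3%. ALAS2, of red blood cells, was the tested gene of its list and was higher in BAT (log2FC 4.23 ± 0.67). Of the nerve (9 tested), thymocyte (6) and B cell (3) lists none was called with all lambs by edgeR (4, 0 and 1 had an unadjusted p under 0.05, and DESeq2 called 3, 0 and 0). Of all tested genes, 26.9% had an unadjusted p under 0.05 by edgeR, and DESeq2 called 3660 of 16006. Without lamb 2, 3 of 9, 1 of 7 and 2 of 3 genes of these lists were higher in BAT, against 17.3% of all tested genes. RAG1 of thymocytes was at 0 in all 6 libraries.

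Markers of tissues next to the thyroid varied between lambs. Across all tested genes, 6.3% were higher in thyroid and 4.67% in BAT with all lambs. Of the C cell list, 5 of 9 tested genes were higher in thyroid. CALCA, the gene of calcitonin, had 15164, 15652 and 229 normalized counts in thyroid and 0, 26.7 and 0 in BAT, with the thyroid of lamb 3 far below the other two. PTH, parathyroid hormone, had 20.1, 4139 and 0 and GCM2 0, 398 and 0 in thyroid, so that the thyroid of lamb 2 alone was rich in parathyroid genes, and both were at 0 in BAT. Of the 4 tested parathyroid genes, CASR was higher in thyroid and PTH1R in BAT, a call lost without lamb 3 (adjusted p = 0.0509). Skeletal muscle genes were high in the thyroid of lamb 1, with 66848, 819 and 3.88 normalized counts of the muscle actin ACTA1 and 23782, 315 and 0 of the creatine kinase CKM, and their summed level was 195747, 3144 and 461 in thyroid against 1299.5, 1437 and 781 in BAT. Of 14 tested muscle genes, 2 were called, TNNI1 and MYH2, and the call of MYH2 (13833, 67.0 and 13.8 in thyroid) was lost without lamb 2 (adjusted p = 0.0977) or lamb 1 (adjusted p = 0.0902). Without lamb 3, 13 of 18 muscle genes and 9 of 12 C cell genes were higher in thyroid, against 839 of all 16120 tested genes. Of the organs next to BAT, UMOD of kidney was at 0 in all 6 libraries, and LRP2, shared with the follicle, was the kidney gene called (1 of 2 tested, higher in thyroid). Of 3 tested adrenal genes STAR, which brings cholesterol into mitochondria, was higher in BAT, with 154, 3595 and 213 against 7.08, 22.6 and 8.31 (log2FC 5.46 ± 0.79). CYP17A1, also tested, had 20.6, 184 and 20.2 in BAT and 8.71, 37.1 and 5.54 in thyroid and was not called (log2FC 1.81 ± 0.69, adjusted p = 0.151). All 3 had a log2FC above 0, and without lamb 2, 2 of 3 were called higher in BAT, against 17.3% of all tested genes. The adrenal enzymes CYP11A1 and CYP11B1 had 0, 11.9 and 3.36 normalized counts and 0 counts in BAT. Of the cartilage list 1 of 3 was called (SOX9, higher in thyroid), and of mesothelium WT1 was higher in BAT and KRT19 and CALB2 in thyroid (3 of 5 tested), where the call of WT1 was lost without lamb 1 (adjusted p = 0.0894) or lamb 3 (adjusted p = 0.145).

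Cell division, interferon response and reference genes had few or no calls with all lambs. Across all tested genes, 4.67% were then called higher in BAT and 6.3% in thyroid. None of 23 tested cell division genes was called by edgeR (5 had an unadjusted p under 0.05, against 26.9% of all tested genes, and DESeq2 called 4, against 3660 of 16006). MKI67, a marker of cycling cells, had 141, 17.8 and 46.2 normalized counts in BAT and 9.26, 11.8 and 17.2 in thyroid. Without lamb 2, 3 of 25 genes of this list were higher in BAT, MKI67 among them (log2FC 2.64 ± 0.70, adjusted p = 0.018), and 1 in thyroid, against 17.3% and 15.8% of all tested genes. Of 17 interferon response genes, 1 was called, IRF7, with 169.9, 215 and 353 in thyroid and 29.4, 8.91 and 34.4 in BAT (log2FC -3.37 ± 0.57, adjusted p = 0.0178), and without lamb 2 another 5 were higher in BAT, against 17.3% of all tested genes. None of the 4 reference genes was called by edgeR or by DESeq2, and 0 had an unadjusted p under 0.05. Their log2FC lay between -0.56 and 1.07, with GAPDH at 1.07 ± 0.65, ACTB at 0.34 ± 0.42, RPL19 at -0.13 ± 0.47 and HUWE1 at -0.56 ± 0.46.

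**Figure D4:**
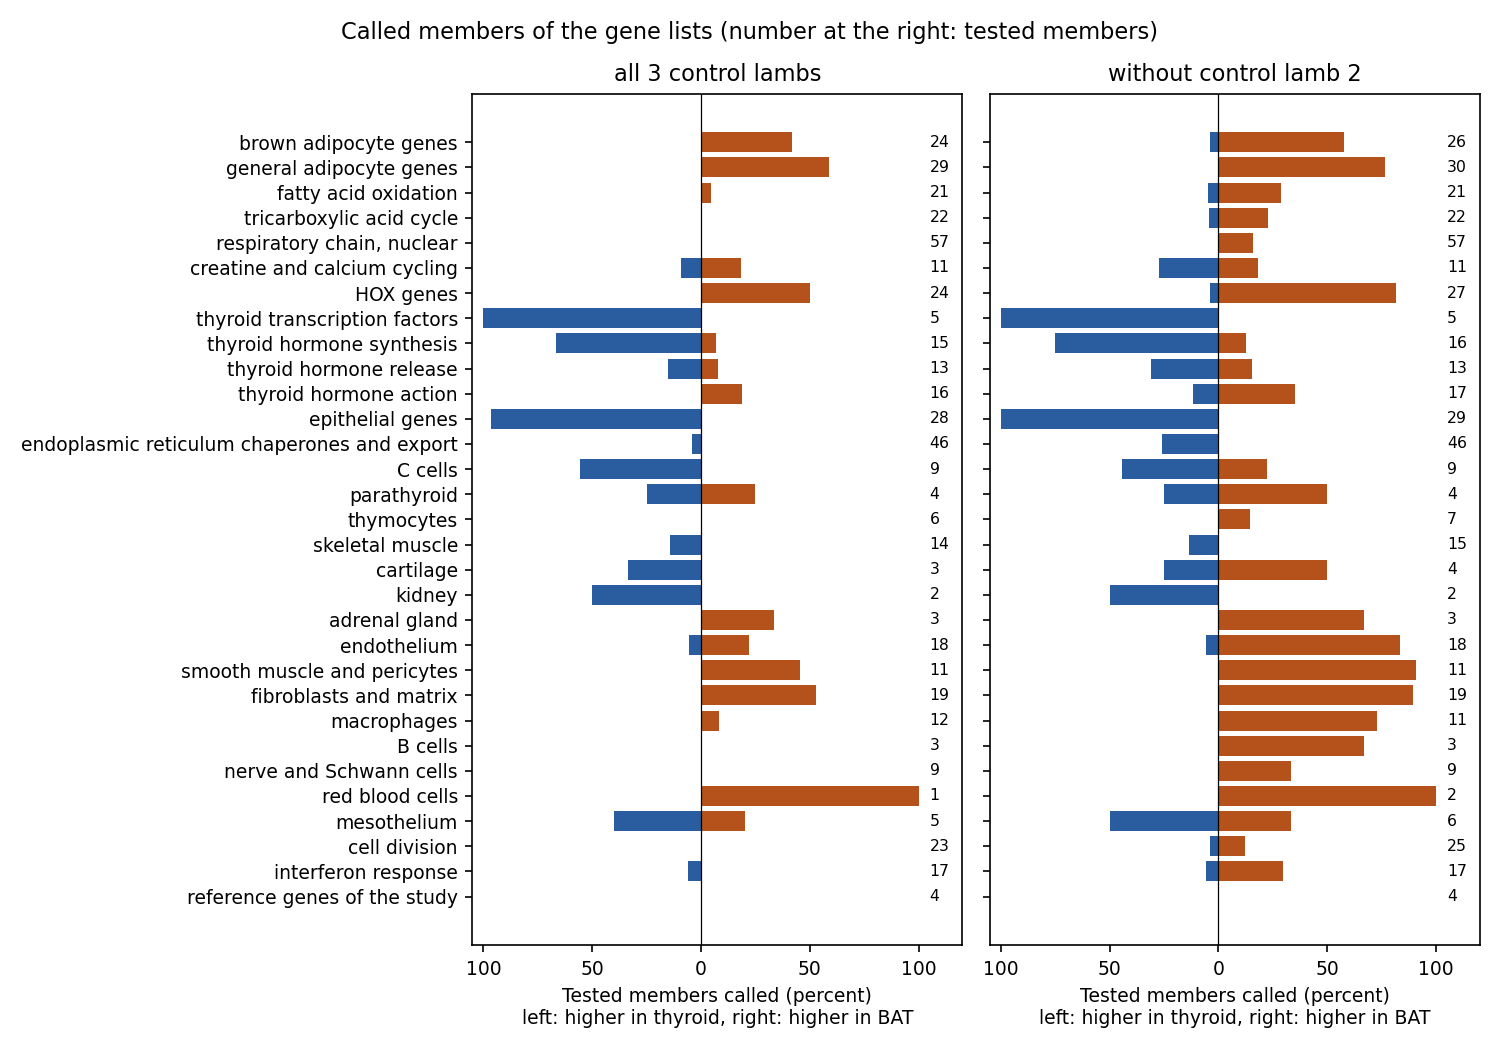
Percent of the tested members of each of the 31 gene lists that were called higher in thyroid (blue, to the left) or in BAT (orange, to the right), with all 3 control lambs (left panel) and without control lamb 2 (right panel), and the number of tested members at the right of each bar. Thyroid transcription factors and epithelial genes reach nearly all members on the thyroid side in both panels, whereas the stromal lists fill up on the BAT side once lamb 2 is left out.

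The tissue difference of the controls was then set against that of the 12 treated lambs, which are other animals. In a separate fit of their 24 libraries, 7327 of 18295 genes (40%) were called. Of the 1757 DEGs of the controls, 1753 were tested there, 1685 were called with the same sign (95.9% of the control DEGs and 23% of those of the treated lambs), 68 were not called and 0 had the opposite sign. The difference between control and treated lambs was itself tested in a fit of all 30 libraries. It was called for 137 of 18469 genes (0.742%), 40 (0.217%) with a value shifted towards BAT in the controls and 97 (0.525%) towards thyroid, and the count was 350 in the fit without the replicate block. In this fit UCP1 (-0.92 ± 0.87, adjusted p = 0.646) and TG (-1.47 ± 1.37, adjusted p = 0.639) were not called. Age and treatment change together in this contrast and cannot be told apart.

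Among the named genes called in this test, IL1RN, which blocks the interleukin 1 receptor, had a log2FC between the tissues of 4.91 ± 0.45 in the controls and of 0.96 ± 0.29 and 0.90 ± 0.29 in ambient and cold lambs, a difference of 3.98 ± 0.47 (adjusted p = 0.00204). In the scaling of this fit its BAT values were 440.2, 1223 and 348 in the controls, against 18.8 to 129 in treated lambs, whereas the thyroid values overlapped. MASP1, a protease of the complement system, went the same way, with BAT values of 2343, 2760.1 and 683 in the controls and 243 to 598 in treated lambs (difference 3.65 ± 0.52, adjusted p = 0.00623). The controls lay above every treated BAT library for both genes. IRF7, a transcription factor of the interferon response, was low in control BAT (35.5, 10.6 and 42.5) and between 143 and 1083 in treated BAT, while the thyroid values overlapped (209, 264 and 435 in controls, 226 to 1381 in treated lambs), with a difference of -2.60 ± 0.37 (adjusted p = 0.00524). The controls lay below every treated BAT library for IRF7. IL1RN and MASP1 kept their calls under all 8 alternatives tried for this contrast, which were not run for IRF7 and CTSZ. CTSZ, the protease named above, had a log2FC of 2.46 in the controls, 0.90 in ambient and 0.83 in cold lambs (difference 1.60 ± 0.32, adjusted p = 0.03), and it was the thyroid values that lay apart, at 603, 587 and 509.9 in the controls and 836 to 2017 in treated lambs.

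**Figure D5:**
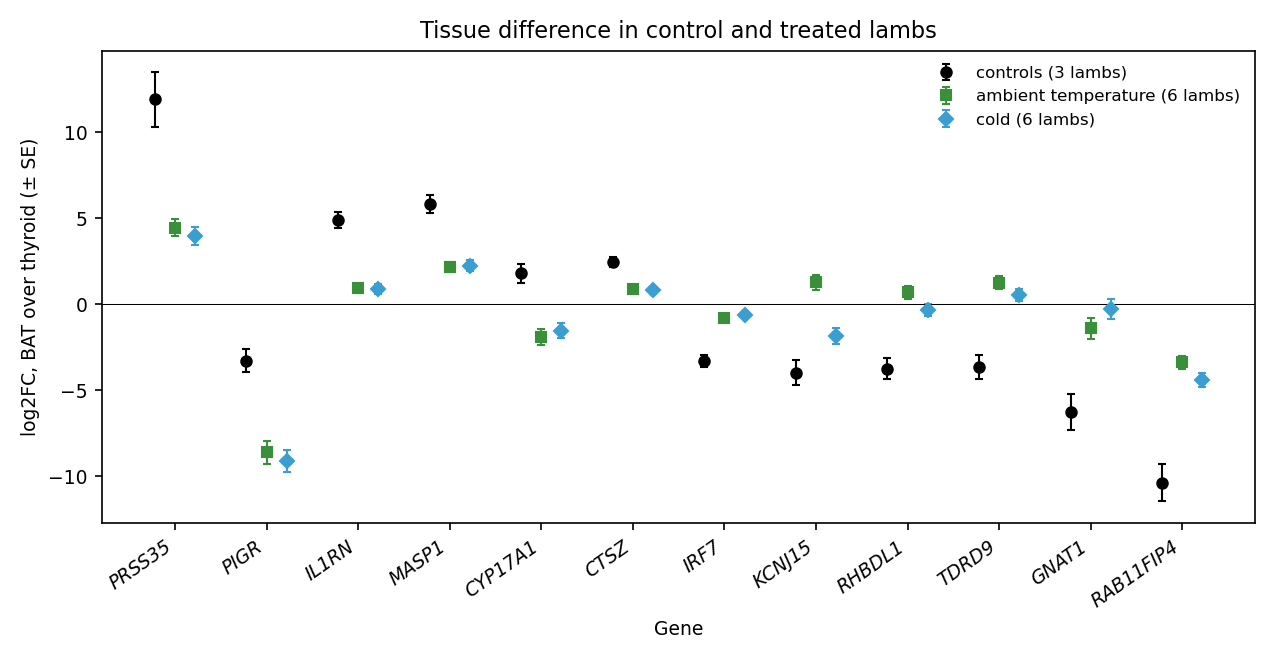
Difference between BAT and thyroid (log2FC with SE bars, from the fit of all 30 libraries) of 12 genes in 3 control lambs (black), 6 ambient lambs (green) and 6 cold lambs (blue), for the named genes whose tissue difference was called different between control and treated lambs. For IL1RN, MASP1, CTSZ and IRF7 the ambient and cold values lie together and the control value apart, and the control value of PRSS35 rests on 1 BAT library.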

How the data were processed

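RNA was extracted with TRIzol, mRNA was captured with oligo(dT), and libraries were sequenced on a BGISEQ-500 as paired 150 bp reads. The authors deposited whole-number counts per gene, made with Trimmomatic 0.39, STAR 2.7.7a and featureCounts (Subread 2.0.0) on Oar_rambouillet_v1.0, with multimapping reads counted. The strand setting of the counting is not given in the sources used here, so overlapping genes and close paralogues are uncertain, LOC114112617 and LOC114115287 included. The table holds 28524 genes, 10441 of them named LOC, and 22250 names are in the RefSeq table of ARS-UI_Ramb_v3.0, which was used for chromosome numbers only. Positions are those of the deposited file. No column of the table was left out (0 of per-sample values).

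Genes with at least 10 reads in 3 of the 6 control libraries were tested with edgeR 4.0.16 (R 4.3.3), by a robust quasi-likelihood fit with TMM scaling, the lamb as a block and the tissue as the effect. Adjusted p-values are Benjamini-Hochberg values over all tested genes, and a gene was called at an absolute log2FC of at least 1 and an adjusted p under 0.05. Where a tissue had 0 counts, the fold is a bound against 3 counts at its smallest size factor. Where it had 1 to 3 counts, a ratio with its 95% counting interval is given. Intervals cover counting error only, since PCR reads are not independent molecules. The 6 libraries come from 3 lambs, each with both tissues. An exact permutation test of the 3 pairs could not go below 0.25 (0.1 if 3 against 3 were unpaired). The block follows from the design, since a number marks the tissues of a lamb. Deviations from the tissue means correlated by 0.0056, 0.063 and 0.139 within lambs. The contrast with treated lambs was an interaction in a fit of all 30 libraries with the lamb as a block. No libraries were duplicates (chi-square per degree of freedom at least 208). On simulated counts of 15658 genes for the control comparison, 18% of genes with a log2FC of 2 and 99% of those with 4 were recovered, with 6 false calls. The changed genes had a mean of at least 100 normalized counts, and no lamb effect was simulated. Recovery for genes at lower counts, or with a lamb that stands apart, is therefore not known.

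The genes named are the core members of 31 lists, the 10 largest and 10 smallest log2FC among called genes with a symbol, the called members with the largest differences in each list and those against its direction, the 5 largest and 5 smallest interactions, and the 5 genes with the highest share of counts in each tissue. Some genes that this rule names are not reported here. The lists and members were chosen with earlier results of these data known. These genes were chosen after their values were seen: ADRB1, AQP7, CEBPA, CYP11A1, CYP11B1, DUOX1, DUOXA1, DUOXA2, EBF3, FABP3, FASN, GAPDH, GK, HOXA2, HOXA4, HOXA9, HOXB1, HOXB2, HOXB6, HOXD3, MAL2, PLIN5, PNPLA2, SCD, SLC26A7 and TRARG1. Alternatives were DESeq2 1.42.0 (test and size factors), scaling to 3 reference genes or without the 2 LOC genes, no block, all 30 libraries, other filters, a test against a log2FC of 1, and each lamb left out.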

Additional observations from a re-analysis of the deposited data

Results flagged for a closer look

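The tissue difference of control lambs differed from that of treated lambs for 137 of 18469 genes by the interaction in edgeR's quasi-likelihood test, and 12 of the named genes were among them. Their values are differences of log2FC, control minus treated, and where 3 further values follow they are the log2FC of BAT over thyroid in control, ambient and cold lambs. Controls were younger and not kept at a set temperature, and these cannot be told apart.

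Shifted towards BAT in the controls were PRSS35 (7.70 ± 1.55, adjusted p = 0.0389), PIGR, which carries antibodies across epithelia (5.57 ± 1.01, adjusted p = 0.0198, with -3.27, -8.61 and -9.09), IL1RN (3.98 ± 0.47), MASP1 (3.65 ± 0.52), CYP17A1, an enzyme of steroid synthesis (3.51 ± 0.65, adjusted p = 0.022, with 1.80, -1.89 and -1.53), and CTSZ (1.60 ± 0.32). The value of PRSS35 came from 1 library. In the scaling of this fit its BAT values were 1.78, 2138 and 1.04, with 0 in the control thyroids, and without lamb 2 the difference was -0.456.

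Shifted towards thyroid were RAB11FIP4, of vesicle recycling (-6.48 ± 1.38, adjusted p = 0.0458, with -10.36, -3.36 and -4.41), GNAT1, the rod transducin (-5.42 ± 1.19, adjusted p = 0.0456), TDRD9, of germ cells (-4.54 ± 0.73, adjusted p = 0.0138), RHBDL1, a rhomboid protease (-3.93 ± 0.65, adjusted p = 0.0138), KCNJ15, a potassium channel (-3.68 ± 0.78, adjusted p = 0.0407, with -3.96, 1.28 and -1.84), and IRF7 (-2.60 ± 0.37).

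The alternatives for this contrast were not run for IRF7 and CTSZ, and several of the other calls were lost under an alternative. With each control lamb left out, PIGR was lost without lamb 1 (adjusted p = 0.0571) and lamb 2 (0.066), CYP17A1 without lamb 2 (0.0704) and lamb 3 (0.0531), RAB11FIP4 without lamb 1 (0.0744) and lamb 3 (0.131), GNAT1 without lamb 1 (0.0602) and lamb 2 (0.187), KCNJ15 without lamb 1 (0.0646) and lamb 2 (0.0814), and TDRD9 without lamb 3 (0.0531). With cold lambs alone as the treated group, PRSS35, PIGR, CYP17A1, RAB11FIP4, GNAT1, RHBDL1 and KCNJ15 were lost, with adjusted p from 0.0553 (PIGR) to 0.356 (KCNJ15), and with ambient lambs alone GNAT1 (0.0968). With DESeq2 size factors GNAT1 and RAB11FIP4 were lost (both 0.0512), and without the replicate block PRSS35 (0.0669).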

How the results depend on the processing

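Of the 129 tested named genes, 92 were called, 0 of these changed sign under an alternative, and 74 kept their call in all of them, whereas 12 of the genes not called changed sign in at least 1 alternative, such as PPARGC1A (0.35) and HSPA5 (-1.21) without lamb 2. The count of called genes was 3660 by DESeq2's Wald test (1852 higher in BAT, 1808 in thyroid), 5929 in a fit of all 30 libraries (2901 and 3028), 950 in a test against a log2FC of 1 (325 and 625), and 5975 in the fit of all 30 libraries without lamb 2, chosen after seeing the data (3307 and 2668, 55.3% higher in BAT). With each lamb left out in turn it was 1209 to 5473, with 413 to 2858 higher in BAT and 781 to 2615 in thyroid. Without the replicate block, that is without pairing by lamb, 2344 genes were called (995 and 1349), and the calls of GPX3, LOC114112617 (adjusted p = 0.0735), LOC114115287, LOC114112677, LOC114112646 and LOC114112704 were lost. Scaling to reference genes moved the median of all genes from -0.04 to 0.07, with 47.7% of calls higher in BAT against 42.6%, and lost PLVAP (log2FC -1.77, adjusted p = 0.062). Leaving out lamb 1, 2 or 3 lost 10, 1 and 10 calls of the named genes. Genes restricted to BAT numbered 6 to 19 and to thyroid 82 to 118 with a lamb left out, 10 and 140 with at most 10 counts allowed, and 0 and 8 from 1000 normalized counts. The interaction gave 280 genes with reference gene scaling, 28 with cold lambs alone, 350 with no replicate block, and 124 to 152 with a control lamb left out, and PRSS35 lay between -0.456 (without lamb 2, reversed) and 8.51 (without lamb 1). The causes were not tested. BAT of lamb 2 held 8749813 counts outside the 2 LOC genes, the fewest of the 6 libraries.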

Other observations

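Some genes outside the lists were looked at after their values were seen. UCP3, a relative of UCP1 known from muscle and brown fat, had 0 counts in all 3 BAT libraries and 559, 72.4 and 719.9 normalized counts in thyroid, at least 50.6-fold higher there (edgeR's quasi-likelihood test, adjusted p = 0.00651). UCP2, found in many tissues, had 1523, 6113 and 1187 in BAT and 2541, 2825 and 3043 in thyroid and was not called (log2FC -0.35 ± 0.60).

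Around TG on chromosome 9, called genes lay next to a gene that was not called. SLA, an adaptor of immune cells that lies inside TG on the opposite strand (22984036 to 23050588), had 660.1, 5398 and 745 normalized counts in thyroid and 47.0, 80.2 and 5.04 in BAT (log2FC -5.62 ± 0.80, adjusted p = 0.0106), and since the strand of the counting is not known its reads and those of TG cannot be told apart. PHF20L1, at 9.45 kb from TG, was not called (log2FC -0.74 ± 0.47). TMEM71, at 102 kb, had 4306, 18224 and 5470.1 in thyroid and 23.5, 23.8 and 20.2 in BAT (log2FC -8.34 ± 0.73, adjusted p = 0.00405), and LRRC6, at 180 kb (23387767 to 23481170), had 0 counts in BAT.

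UCP1 transcripts in thyroid were at 106, 421 and 175 in the controls in the scaling of the fit of all 30 libraries, against a median of 10.1 (1.92 to 112) in treated lambs. The tissue difference of UCP1 was not called different between them (-0.92 ± 0.87, adjusted p = 0.646), and the difference within thyroid alone was not tested.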
